A study of Mus musculus with 8 samples.

Results

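The Slc35 genes encode transporters that sit in the membranes of the Golgi apparatus and the endoplasmic reticulum. The 10 genes described here, Slc35a1, Slc35a2, Slc35a3, Slc35a4, Slc35a5, Slc35b1, Slc35b2, Slc35b3, Slc35b4 and Slc35d1, were chosen by their symbols in the table of all genes. They are 10 of 25574 genes in that table and 10 of the 23 genes there whose symbol begins with Slc35. All 10 had a level above 0 in at least 1 library, in FPKM, which is the number of sequenced fragments scaled to transcript length and library size. For testing, either dataset had to reach a mean FPKM over 0.1, which 14292 of all genes and 9 members did. Slc35d1 did not.

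Sugars are added to secreted and membrane proteins inside the Golgi and the endoplasmic reticulum, but the activated sugars are made outside these compartments. Each transporter exchanges a nucleotide-bound donor for a spent nucleotide, and so sets which donor is at hand for the transferases inside. In the oocyte the zona pellucida, a coat of heavily glycosylated and in part sulfated proteins, is made through this route. Not every member carries a sugar: Slc35b2 and Slc35b3 carry the sulfate donor PAPS, and Slc35b1 exchanges ATP for ADP across the membrane of the endoplasmic reticulum.

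The samples were NEBD-stage oocytes, in which the nuclear envelope had broken down, from 8-week-old mice of the outbred CD1 strain with no genetic alteration named. The mice received 5 IU of PMSG, and oocytes were collected after 46 h in medium with 100 µM IBMX, an inhibitor that holds meiosis at the germinal vesicle stage. Oocytes were freed of their surrounding cells and cultured without IBMX for 180 min. Those that had lost the envelope were selected partway through this culture. They were then treated with 0.1 mg/ml cycloheximide, which fixes ribosomes on mRNA, for 10 min. Lysates of 200 oocytes, which is a pool and not 1 cell, were spread on sucrose gradients. RNA of the non-polysomal fractions (NP dataset, NP1 to NP4) and of the polysomal fractions (P dataset, P1 to P4) was sequenced after amplification. Both kinds of fraction came from the same gradients. The question put to each member was whether its mRNA was more abundant, relative to the other mRNAs of the library, in polysomes or outside them.

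The number of sequenced units behind each library, recovered from the steps between FPKM values, ranged from 1299376 to 7594703 over the NP libraries and from 2677898 to 4699348 over the P libraries. Of the genes tested, 36.5% were at 0 in P4, the highest share of the 8 libraries, against 8.64% to 29.1% elsewhere. The 12 oocyte markers summed to 7585 to 15256 FPKM in NP and 9642 to 39162 FPKM in P. The 16 cumulus and granulosa cell markers summed to 15.3 to 141 FPKM in NP and 20.3 to 64.0 FPKM in P, and 6 of them, Amhr2, Foxl2, Inhba, Fst, Has2 and Ptx3, were at 0 in every library. The highest of these 16 were Cyp19a1, at up to 75.2 FPKM (NP4), Nr5a2, at up to 61.4 (NP3), and Cyp11a1, at up to 46.4 (NP4), and the part of such RNA in the results was not tested. FPKM is a share of a library, so it gives the level of an mRNA relative to the others and not its amount per oocyte.

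Since the libraries separate mRNAs by their ribosome load, the bases around the start codon of the members are shown first. They come from 1 GENCODE M21 transcript a gene on GRCm38, from 9 bases before the ATG to 3 bases after it. Capitals mark the ATG, the third base before it and the base right after it, the positions that the scanning ribosome is known to read. The most abundant member by median, the member with the largest difference, the second most abundant one and the members without a purine in front are given.
Slc35b3: gcagaaAcaATGGac
Slc35a2: gatgccAacATGGca
Slc35b4: gcaccgGccATGCgc
Slc35a5: gggctgCtcATGAaa
Slc35b1: gtgcgtCtcATGGcc
Slc35b3 and Slc35a2 had the purine A in front and a G behind the ATG. Slc35b4 had the purine G in front and a C behind. Slc35a5 had neither a purine in front nor a G behind, and Slc35b1 had the G alone.

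Of the 10 members, 8 had a purine at the position in front, 6 a G behind, and 5 both. Among 11677 tested genes with such a transcript, the shares were 84.7%, 52.6% and 44.4%. The coding sequences of the members were alike in length, 921 to 1314 bases, while the sequence after the stop codon ran from 236 bases in Slc35b1 to 5000 in Slc35b4.

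The cytoplasmic polyadenylation element, a motif near the mRNA end that is known to govern when stored oocyte mRNAs are recruited, was searched as TTTTAT or TTTTAAT on the mRNA strand of the last 100 bases. Both spellings begin with the same letters but cannot match at the same place. It was found in Slc35a3, Slc35b4 and Slc35d1, 3 of the 10 members, against 19.3% of 10926 tested genes with at least 100 bases after the stop codon. The matches in the 2 of these members that passed the filter follow, with the motif in capitals.
Slc35a3: cagaaactagcTTTTATttcaagtggttag
Slc35b4: agacatctggtTTTTATctttaatttgcaa
The motif lay 86 bases before the annotated end of Slc35a3 and 48 bases before that of Slc35b4. Anywhere after the stop codon, 6 of the 10 members held a match, against 61.8% of those tested genes. Slc35a2, Slc35a4, Slc35b2 and Slc35b3 held neither spelling there, and in Slc35a2 that sequence was 246 bases long. A match describes letters only, and the end that these oocytes use was not measured.

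None of the 9 members tested passed the threshold for a difference between P and NP. In limma, a linear model fitted on log2(FPKM + 1) over all genes tested, 0 of 9 passed an adjusted p of 0.1, as did 0.021% of all genes. Without adjustment, 0 of 9 had a p below 0.05, whereas 9.47% of all genes did so with the higher level in NP and 0.476% with the higher level in P. The lowest unadjusted p of a member was 0.154, and the adjusted p from limma ran from 0.613 to 0.908. In no member did the libraries of the datasets separate, while all 4 NP libraries lay above all 4 P libraries in 5.92% of all genes and all 4 P libraries above the NP libraries in 0.357%.

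**Figure D1:**
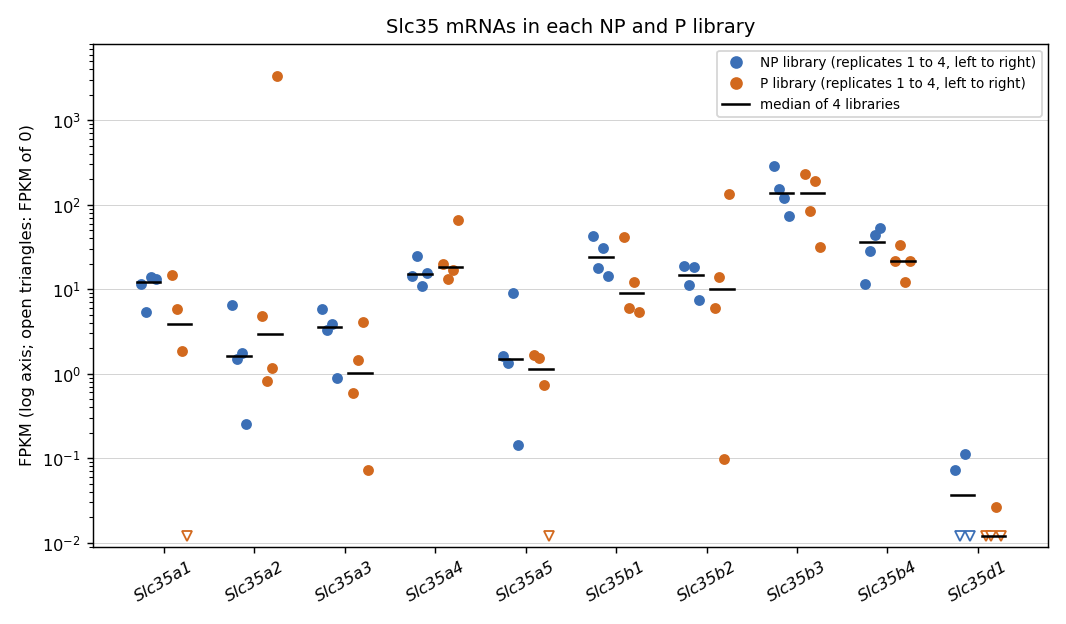
FPKM of the 10 Slc35 mRNAs on a log axis in each of the 4 NP (blue) and 4 P (orange) libraries, with the median of each dataset as a bar and values of 0 as open triangles. Slc35b3 was the highest member in 7 of 8 libraries, the NP and P points of every tested member overlap, and 1 point of Slc35a2, P4 at 3304 FPKM, stands far above all others.

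Slc35b3 and Slc35b2, the transporters of the sulfate donor, were very unequal in level. Slc35b3 (chromosome 13, 38932140 to 38960875, minus strand, GRCm38) had FPKM values of 285, 153, 121 and 73.7 in NP1 to NP4. The P1 to P4 values were 233, 84.4, 191 and 32.0. It was the most abundant member in every library but P4, and its NP and P values overlapped except that P4 lay below all NP libraries. The mean was 158 ± 90.7 FPKM in NP and 135 ± 93.0 in P (SD, n = 4), a log2 fold change of P over NP of −0.41 (SE 0.70, limma adjusted p = 0.802). The annotated gene Gm26514 lies inside Slc35b3 on the same strand (38945543 to 38951313), and how its reads were assigned was not tested. On the other strand 5033403F01Rik overlaps 1 end of Slc35b3, from 38960619 on. The library kit does not mark strand, so reads from that shared stretch cannot be told apart.

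Slc35b2 (chromosome 17, 45563964 to 45567669, plus strand) had 18.9, 11.2, 18.3 and 7.47 FPKM in NP1 to NP4. The polysomal libraries P1 to P4 had 6.04, 14.1, 0.0967 and 134. The NP libraries stayed within a narrow band, whereas P3 was the lowest and P4 the highest of the 8 libraries, 1389 times apart. The value in P3 stood for 1 sequenced unit and that in P4 for 837. The log2 fold change was −0.33 (SE 1.17, limma adjusted p = 0.908), −1.53 without P4 and 0.78 without P3, so that its direction turned without P3 and its size grew without P4.

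Slc35a1, Slc35a2 and Slc35a3 carry the donors of the sugars at the outer ends of N-glycans. Slc35a1 (chromosome 4, 34663257 to 34687438, minus strand), the transporter of CMP-sialic acid, had 11.5, 5.37, 13.8 and 13.1 FPKM in NP1 to NP4. Its P1 to P4 values were 14.7, 5.85, 1.86 and 0. P1 was the highest of all 8 libraries while P3 and P4 lay below every NP library, so the P libraries differed among themselves more than the NP libraries did. The 0 in P4 allows a level of up to 0.489 FPKM, the worth of 3 units there. The log2 fold change of −1.44 (SE 0.96, limma adjusted p = 0.613) was the most negative of the members, and it was −0.75 (SE 0.86) without P4.

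Slc35a3 (chromosome 3, 116669469 to 116712831, minus strand), a transporter of UDP-N-acetylglucosamine, had 5.91, 3.33, 3.90 and 0.880 FPKM in NP1 to NP4. In P1 to P4 it had 0.586, 1.44, 4.07 and 0.0734. P1 and P4 lay below all NP libraries and P3 lay above 3 of them. Its mean was 2.27 times as high in NP, with a log2 fold change of −0.93 (SE 0.80, limma adjusted p = 0.667). The annotated protein-coding gene Gm43191 (116641902 to 116681260) overlaps Slc35a3 on the same strand, and 275 bp of their transcripts are identical. The Slc35a3 transcript also matches Gm48496 at 99.5% over 221 bp. Reads of Slc35a3 could thus be split, and how they were assigned was not tested.

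Slc35a2 (chromosome X, 7884041 to 7894492, plus strand), the transporter of UDP-galactose, had 6.51, 1.499, 1.78 and 0.256 FPKM in NP1 to NP4. In P1 to P4 it had 4.77, 0.810, 1.17 and 3304. In 7 libraries it was a low mRNA with overlapping NP and P values, and in P4 it was the 20th most abundant of all genes. P4 exceeded the second highest library, NP1, 508-fold. In sequenced units, using a gene length found by search because the annotated one gave no whole numbers, there were 27255 in P4 against 6 to 69 in the other libraries, or 1.02% of all units in P4.

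The difference in Slc35a2 thus rested on 1 library. Over all 8 libraries the mean was 828 ± 1651 FPKM in P and 2.51 ± 2.75 in NP (SD, n = 4), and the log2 fold change was 2.54 (SE 1.88, limma adjusted p = 0.644). Without P4 the mean in P was 2.25 ± 2.19 (SD, n = 3) and the log2 fold change was −0.0090 (SE 0.87, limma adjusted p = 0.997). Pim2, which ends 608 bp upstream, had 4.81 FPKM in P4 and 1.91 to 40.5 in NP. Pqbp1, which lies 26 bp downstream on the other strand, had 0.457 FPKM in P4, its lowest value, against 15.5 to 47.5 in NP. Timm17b, the next gene beyond Pqbp1, had 49.5 FPKM in P4 and at most 15.7 in the other libraries. The nearest gene on either side thus did not have its highest level in P4, while the next one downstream did, at a level far below that of Slc35a2.

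Peaks in a single library were not particular to Slc35a2. Across all genes tested, 8.1% had a highest library more than 10 times the second and above an FPKM of 1, and among the members Slc35a2 was 1 of 9. Such genes numbered 91 to 226 in each library and 140 in P4. In size the peak of Slc35a2 was among the most extreme, since 3 of 12551 genes with a second library above 0 had a larger ratio. The genes whose pattern over the 8 libraries was most like that of Slc35a2 were Slc29a2 (Pearson r = 0.995 on log2(FPKM + 1)), 9930021D14Rik (0.987) and Gng2 (0.986). In each of them P4 was also the highest library, at 5.14, 22.5 and 6.46 FPKM, and that 1 library shapes the correlation.

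**Figure D2:**
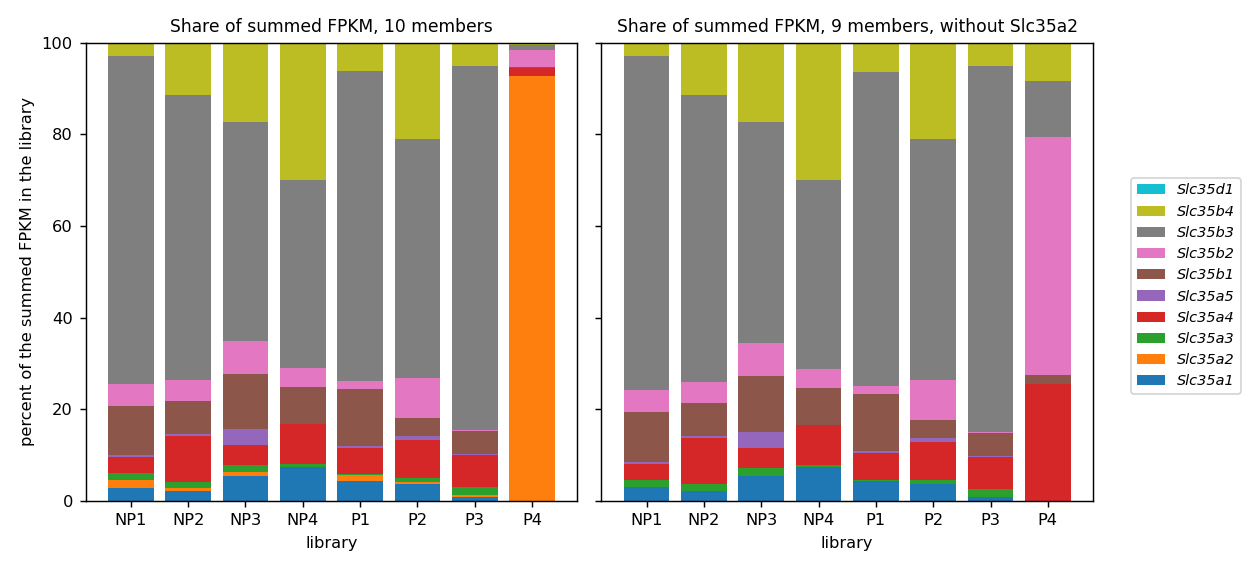
Share of each member in the summed FPKM of the 10 members per library (left, in percent) and of the 9 members without Slc35a2 (right). Slc35b3 made up 41.2% to 79.6% in 7 libraries, while Slc35a2 made up 92.7% in P4, and with Slc35a2 left out Slc35b2 made up 51.8% there.

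As a group the members summed to between 161 and 398 FPKM in 7 libraries and to 3564 FPKM in P4. Without Slc35a2 the sum in P4 was 259 FPKM, within the 160 to 392 FPKM of the other libraries on the same footing. Slc35b3 made up 41.2% to 71.6% of the sum in NP and 52.3% to 79.6% in P1 to P3. With Slc35a2 left out, P4 still differed in its make-up, with 51.8% Slc35b2, 25.4% Slc35a4 and 12.4% Slc35b3. Against the other 3 P libraries, P4 was the highest for 3 members and the lowest for 5. The same shares over all genes tested were not counted, so these counts do not set the members apart.

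Slc35b4 and Slc35d1 carry donors used in glycosaminoglycan synthesis, UDP-xylose and UDP-glucuronic acid. Slc35b4 (chromosome 6, 34153380 to 34177111, minus strand) had 11.7, 28.1, 43.6 and 53.5 FPKM in NP1 to NP4. The P libraries, in the same order, had 21.5, 33.8, 12.2 and 21.5. It was the steadiest member, with a highest library 4.58 times the lowest, and every P value lay inside the NP range. The log2 fold change was −0.48 (SE 0.68, limma adjusted p = 0.769). The antisense gene Gm13856 overlaps Slc35b4, and its reads cannot be told apart without strand.

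Slc35d1 (chromosome 4, 103170649 to 103215164, minus strand) was at the limit of detection. It had 0.0735 FPKM in NP1, 0.113 in NP3 and 0.0264 in P3, which stood for 2, 7 and 1 units, and was at 0 in the other 5 libraries. A count of 0 there allowed up to 0.0463 FPKM in NP4, the deepest library, and up to 0.271 in NP2, the shallowest. A difference between P and NP could not be detected at this depth.

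Slc35a4 and Slc35a5 are relatives of the 3 members above whose cargo is less well settled. Slc35a4 (chromosome 18, 36679579 to 36683858, plus strand) had 14.4, 24.6, 11.01 and 15.6 FPKM in NP1 to NP4. From P1 to P4 the values were 19.8, 13.3, 16.7 and 65.9. P1 to P3 lay inside the NP range and P4 was 2.68 times the highest NP value. The log2 fold change was 0.54 (SE 0.70, limma adjusted p = 0.753), and 0.05 without P4. The transcript is 97.9% identical over 974 bp to that of Gm5866, so the count of Slc35a4 depends on how shared reads were assigned.

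Slc35a5 (chromosome 16, 45139573 to 45158706, minus strand) had 1.63, 1.33, 9.05 and 0.143 FPKM in NP1 to NP4. In P1 to P4 it had 1.66, 1.55, 0.731 and 0. NP3 stood alone above an otherwise shared range. The mean was 3.08 times as high in NP, but the log2 fold change was −0.65 (SE 0.76, limma adjusted p = 0.731) with NP3 and −0.05 without it. The 0 in P4 allows a level of up to 0.243 FPKM.

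Slc35b1 (chromosome 11, 95384692 to 95391776, plus strand), the ATP and ADP exchanger, had the most P libraries, 3 of 4, below the NP range. It had 42.7, 17.7, 30.4 and 14.3 FPKM in NP1 to NP4. In P1 to P4 it had 42.1, 6.03, 12.2 and 5.38. P2, P3 and P4 lay below all NP libraries, and P1 was as high as the highest of them. The mean was 26.3 ± 12.96 FPKM in NP and 16.4 ± 17.4 in P (SD, n = 4), a log2 fold change of −0.98 (SE 0.78, limma adjusted p = 0.650), and −1.57 (SE 0.76, limma adjusted p = 0.473) without P1. With each library centred on its median it was −0.027.

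**Figure D3:**
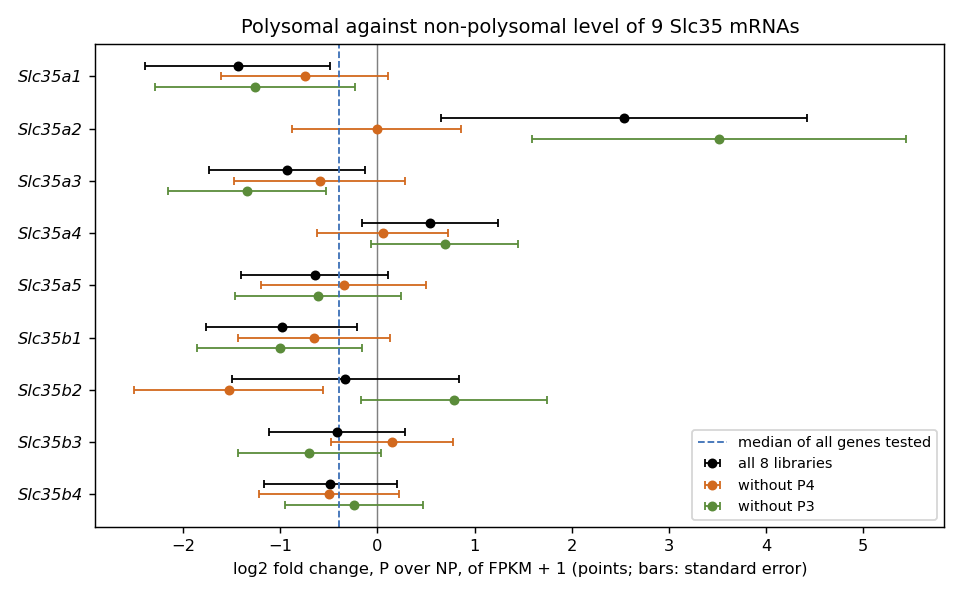
Log2 fold change of P over NP for the 9 members tested (points) with the standard error (bars), from all 8 libraries and without P4 or P3, beside the median of all genes tested (dashed line, −0.39). Slc35a2 went from 2.54 to −0.0090 without P4, and Slc35b2 lay at −1.53 without P4 and at 0.78 without P3.

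Taken by count, 2 of 9 members, Slc35a2 and Slc35a4, had a positive log2 fold change, against 28.6% of all genes tested. These signs depended on the scaling: with each library centred on its median, 7 of 9 were positive, as were 73.0% of all genes, and the median of all genes moved from −0.39 to 0.57. The median of the members was −0.48, with 6 of 9 below the median of all genes. Without P4 the positive members were again 2, now Slc35a4 and Slc35b3. By mean FPKM, Slc35a2 and Slc35b2 were more than 2-fold higher in P, as were 16.9% of all genes, and neither was without P4. Slc35a3 and Slc35a5 were more than 2-fold higher in NP, as were 40.6% of all genes. Without P4 the members over 2-fold higher in NP were Slc35a5, at 2.31 times, and Slc35b2, at 2.07 times, while Slc35a3 was at 1.73 times, so Slc35b2 passed from one side to the other with that library. By median the order in NP was Slc35b3, Slc35b4, Slc35b1, Slc35a4, Slc35b2, Slc35a1, Slc35a3, Slc35a2, Slc35a5 and Slc35d1, and the ranges of neighbours were apart only between Slc35b3 and Slc35b4 and between Slc35a5 and Slc35d1. In P the order was Slc35b3, Slc35b4, Slc35a4, Slc35b2, Slc35b1, Slc35a1, Slc35a2, Slc35a5, Slc35a3 and Slc35d1, and only the ranges of Slc35a3 and Slc35d1 were apart.

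**Figure D4:**
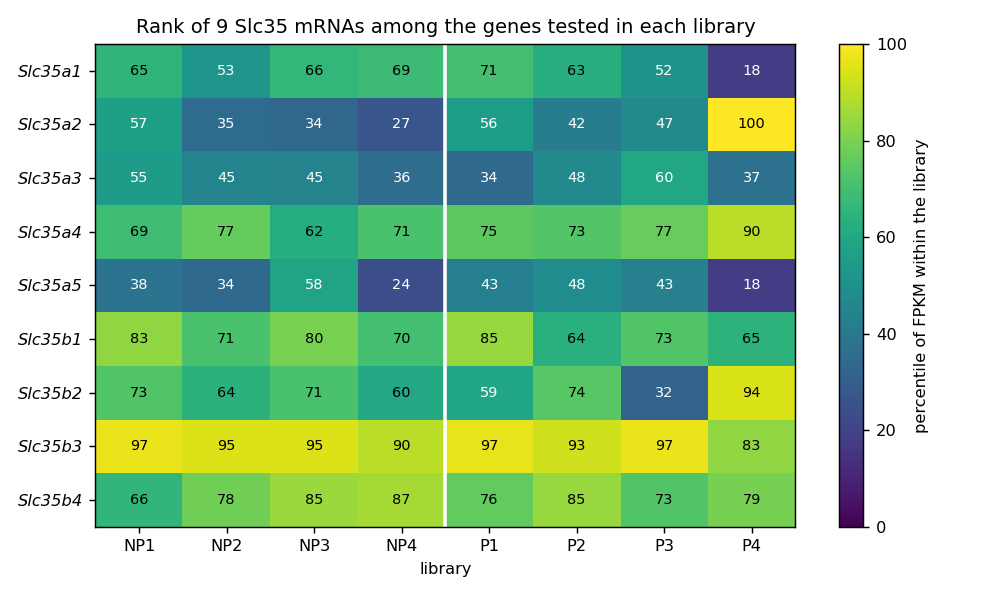
Percentile of the FPKM of 9 members among the 14292 genes tested, in each library (columns, NP left of the white line). Slc35b3 ranked between the 83rd and 97th percentile in all 8 libraries, whereas Slc35a2 ranked between the 27th and 57th in 7 libraries and at 99.9 in P4.

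Ranks within a library do not depend on its scaling. Slc35b3 ranked at a percentile of 89.7 to 97.2 in NP and 83.4 to 97.2 in P. Slc35b4 ranked at 65.7 to 86.6 in NP and 72.8 to 84.7 in P, and Slc35b1 at 69.99 to 83.4 and 63.6 to 84.5. For Slc35a1 the ranks were 52.7 to 68.7 in NP and 51.7 to 70.6 in P1 to P3, with 18.2 in P4, the rank of all genes at 0 there.

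Among the other genes of the family, 13 of 17 listed were in the table and 12 were tested, with 0 called by limma in either direction. An unadjusted limma p below 0.05 was found in 3, all higher in NP (lowest adjusted p = 0.470), against 9.47% of all genes higher in NP. Slc35e1 had 0.280, 0.344, 0.461 and 1.41 FPKM in NP1 to NP4 and was listed at 0 in all 4 P libraries (log2 fold change −0.65, SE 0.29, limma adjusted p = 0.487). Its NP libraries lay above all P libraries, as in 1 of the 12 genes of this list and 5.92% of all genes. The NP levels stood for 4, 2, 15 and 48 units. With so few units in NP1 and NP2, a 0 in P does not show absence from polysomes. Slc35f2, the highest of them by mean, had a peak of 214 FPKM in P4, like Slc35a2, and 1.71 to 12.2 FPKM elsewhere (log2 fold change 1.33, or 0.04 without P4, limma adjusted p = 0.674 and 0.990). Slc35e2 had a peak in another library, with 123 FPKM in P3 and at most 4.74 elsewhere. Such peaks, over 10 times the second library, were found in 2 of the 12 tested, against 8.1% of all genes. By median Slc35e4 was higher than Slc35f2 in both datasets, with 31.6 against 6.36 FPKM in NP and 22.0 against 6.64 in P.

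Of 25 enzymes that make sugar and sulfate donors, 23 were tested and 0 were called by limma in either direction. The list is wider than the cargo of the members. It includes enzymes of GDP-fucose synthesis, and GDP-fucose is not named above as the cargo of any member. An unadjusted limma p below 0.05 was found in 1, higher in NP, against 9.47% of all genes higher in NP. Tsta3, which makes GDP-fucose and had the highest mean of them over the 8 libraries, had 20.5 to 71.6 FPKM in NP and 119, 3.09, 13.6 and 0.855 in P1 to P4 (limma adjusted p = 0.595). P1 lay above and the other 3 P libraries lay below all NP values of Tsta3. By median Cmas was the highest of the list in P, at 51.2 FPKM, then Gmds at 35.5, against 8.32 in Tsta3. Cmas had 6.43 to 10.8 FPKM in NP and 88.2, 3.70, 16.2 and 86.1 in P1 to P4 (log2 fold change 1.52, SE 0.92, limma adjusted p = 0.576). Of the 23 enzymes tested, 3 had a positive log2 fold change, Cmas among them, against 28.6% of all genes tested. The median log2 fold change of these enzymes was −0.58, beside −0.39 for all genes tested.

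Of 38 transferases that use sugar and sulfate donors, 34 were tested and 0 were called by limma in either direction. An unadjusted limma p below 0.05 was found in 2, both higher in NP, against 9.47% of all genes higher in NP. St3gal4, a sialyltransferase that uses the cargo of Slc35a1, had 2.62, 1.52, 2.64 and 2.73 FPKM in NP1 to NP4. In P1 it had 0.629 FPKM, and it was at 0 in P2, P3 and P4. Its datasets did not overlap, the NP libraries being higher, as in 1 of the 34 genes of this list and 5.92% of all genes, with a log2 fold change of −1.56 (SE 0.51, limma adjusted p = 0.405). B4galt5, a galactosyltransferase of glycolipid synthesis that uses the cargo of Slc35a2, had the highest mean over the 8 libraries, with 53.5 to 933 FPKM in NP and 91.5 to 555 in P (limma adjusted p = 0.953). By median B4galt4 was higher in both datasets, with 330 against 141 FPKM in NP and 199.7 against 170 in P.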

How the data were processed

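Per the labels, ribosomal RNA was removed from pooled gradient fractions, and cDNA primed with random and oligo(dT) primers was amplified before library making with a kit that does not mark strand. The submitters' processing notes name Trim Galore 0.4.1, FastQC 0.11.5, HISAT2 2.0.5 and GRCm38. The deposited FPKM values per gene and library are the authors' and are scaled to gene length and library size. Other deposited tables hold the authors' comparisons (mean ratios and DESeq2 results) and were not used. Group and replicate number came from the sample titles. Separate lysates give the replicates of a dataset.

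P and NP were compared 2-sided with limma 3.58.1 (lmFit, eBayes with a trend, R 4.3.3) on log2(FPKM + 1), which understates the change of low genes. The 14292 genes with over 0.1 FPKM as the mean of either dataset entered, with Benjamini-Hochberg adjustment over all of them and a threshold of 0.1. The procedure was tested on simulated data with normal noise and large known changes. Such data lack the single-library peaks seen here, so they give no measure of what could be detected in the members. Sequenced units (reads or fragments, which the steps do not tell apart) were recovered from steps in FPKM, with exon lengths of GENCODE M21 or a searched length. Below 30 steps, 57.9% to 62.1% of values were whole within 0.02. Units from amplified cDNA are not independent molecules, and limits for a 0 cover counting error only. Transcripts were compared with blastn (at least 90% identity over 100 bp) and Python 3.11.15 was used.

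Members and lists were chosen with earlier results of these data known. From each further list, genes called, or up to 3 without overlap by fold change, and the gene with the highest mean were named, and for Slc35a2, which has both the largest fold change and the highest mean, the 3 genes with the most similar pattern. The cumulus cell markers, B4galt4, Gmds, Cmas, Slc35e2, Slc35e4 and the neighbours Pim2, Pqbp1 and Timm17b were named after their values were seen. Protein sequences are not shown.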

Additional observations from a re-analysis of the deposited data

Results flagged for a closer look

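In 5 of 20 groups of 4 libraries (10 members in 2 datasets), the highest library stood apart from the rest by Dixon's criterion, which chance meets in about 1 of 20 groups of normally distributed values. Over all genes tested, 26.4% of such groups met it, so 5 of 20 lies near the background. In the P dataset these were P4 for Slc35a2 (3304 FPKM), Slc35a4 (65.9 FPKM) and Slc35b2 (134 FPKM), and P3 for Slc35d1 (0.0264 FPKM, 1 sequenced unit, with the other 3 libraries at 0, a pattern that always meets the criterion). In the NP dataset it was NP3 for Slc35a5 (9.05 FPKM). P4 thus held 3 of the 5, and how often P4 is the library flagged over all genes tested was not counted. It was also the library with the highest share of tested genes at 0, 36.5%, and whether that share has a part in these values was not tested.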

How the results depend on the processing

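Under 15 alternatives no member passed the threshold (limma adjusted p 0.292 to 0.999). Of these, 4 (no filter, a mean FPKM above 1, the replicate block and eBayes without a trend) cannot move a fold change. Of 99 fold changes under the other 11, 90 kept their direction and 9 reversed. With each library centred on its median, the log2 fold change became 0.030 in Slc35a3, 0.31 in Slc35a5, 0.62 in Slc35b2, 0.54 in Slc35b3 and 0.47 in Slc35b4, 7 of 9 members were positive (73.0% of all genes), and 1 member, Slc35a4, had all P above all NP libraries (12.1% of all genes). Quantile normalization gave 0.090 in Slc35b2. Leaving out each library in turn gave −0.0090 (without P4) to 3.60 in Slc35a2, −1.53 (without P4) to 0.78 (without P3) in Slc35b2 and −0.79 to 0.15 (without P4) in Slc35b3. Leaving out 1 library also put the members with no overlap at 0 to 1 (1 being Slc35b1 without P1, where all NP libraries lay above all P libraries in 11.4% of all genes), those over 2-fold higher in P at 0 to 3, and those over 2-fold higher in NP at 1 to 3. By geometric means with a pseudocount of 1, 1 member was over 2-fold higher in each direction, and with 1 added to arithmetic means 1 was so in NP. Deviations from the dataset means correlated between same-numbered NP and P libraries at 0.139, 0.0518, 0.251 and 0.155 over 11374 genes. For other numbers the range was −0.135 to 0.136, with 10 of 12 below 0. Deviations from a mean cancel out within a dataset, so a positive value with 1 library pushes the rest below 0. That count is therefore no separate sign of pairing. Of the NP libraries, 3 of 4 correlated best with their own number. The study took NP and P fractions from the same gradients, so each NP library has a partner in P. The labels do not say whether equal numbers stand for 1 gradient, and 1 pair was below 0.1. Which libraries are partners thus remained unsettled, and pairing by number was kept as an alternative. The SE and p values given for single members come from fits without pairing. A replicate block called 0 members and 1 gene of all, against 3 without it. With the block the SE was lower in every tested member, as in Slc35b3, at 0.53 against 0.70. The cause of these shifts was not tested. Depth limits Slc35d1 above all, with 0 to 7 units a library.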
